A study of Mus musculus with 23 samples.

Results

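Integrins are the receptors by which fibroblasts hold on to the matrix around them. Each receptor pairs an alpha with a beta subunit in the membrane, binds matrix proteins outside and links through talin, kindlin and other adaptors to actin inside. Alpha 5 with beta 1 is the classical fibronectin receptor, alpha v pairs with several beta subunits and binds vitronectin and fibronectin through the RGD motif, and alpha 3 and alpha 6 with beta 1 bind laminins. The 7 subunit genes Itga3, Itga5, Itga6, Itgav, Itgb1, Itgb3 and Itgb5 were followed here in serum-starved and serum-treated fibroblasts. They were taken as all probe sets that the platform annotation assigns to 1 of these symbols alone, which gave 12 of the 12422 probe sets tested. Itgav had 3 of them, Itga3, Itgb1 and Itgb5 had 2 each, and Itga5, Itga6 and Itgb3 had 1 each; no further probe set was shared between a member and another gene.

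The cells were primary mouse embryonic fibroblasts at stage e14.5, and every sample carried the genotype given as C57/BLACK6, ATF1 -/+. They were grown in 10% serum before starvation. After 48 h in 1% dialyzed serum all cultures spent 2 h with 200 µM 4-thiouridine and tritiated cytidine, in 1% serum (starved) or 10% serum (treated), so that the starved cells received the uridine analogue too. RNA made in those 2 h carries the thiol and was captured on an organomercurial matrix as newly transcribed RNA, and unfractionated RNA was measured as total RNA and as amplified total RNA. This made 6 groups on 23 arrays, with 4 arrays in each group but the amplified starved one, which had 3.

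Array medians of the deposited intensities ran from 20 to 54.2 in total RNA, from 24.2 to 72.05 in newly transcribed RNA and from 7.3 to 75.2 in amplified RNA, and the signals given here are after quantile normalization, which put every array's median at 41.2. The arrays fell into 2 clusters by their profiles. Cluster 1 held newly transcribed replicates 1 and 4 of both serum conditions, amplified starved replicates 1 and 3 and amplified treated replicates 1 and 4; cluster 2 held the rest, with all total RNA. The difference between the 3' and 5' control probe sets of GAPDH, a measure of how far the labelled RNA was shortened, moved with this split on average. Its mean was 2.56 (log2) in cluster 1 against 1.75 in cluster 2 for newly transcribed RNA, 1.94 against 1.03 for amplified RNA, and -0.2 in total RNA. The ranges overlapped in newly transcribed RNA (1.78 to 3.36 against 1.46 to 2.11) and lay close in amplified RNA (1.3 to 2.19 against 0.7 to 1.23). The collagen genes Col1a1 and Col1a2 lay above the array median on every array (496.4 to 7127.1 and 2219.8 to 6126.1), as in fibroblasts, while the probe set of vimentin was dim (5.1 to 48.2). Of 10 macrophage markers 7 had a median over the 23 arrays above the array median, led by Lyz2 (221.1 to 2420) and Cd14 (481.9 to 3366.1), while Itgam (median 4.9), Aif1 (6.3) and Fcgr3 (25) lay below it. The summed signal of the 10 macrophage markers was 2569.5 to 5438.5 in starved and 2505 to 5885.4 in treated total RNA. Of 7 endothelial markers 2 had a median above the array median, Eng (124.1 to 1137.1) and Flt1 (6.6 to 346.7), and the endothelial cadherin Cdh5 lay at 1.3 to 3.8. Of 8 epithelial markers 1 had, Cdh1 (42.2 to 153.3), with Epcam at 0.2 to 8. Of 8 skeletal muscle markers 3 had, Acta1 (48.4 to 961.9), Itga7 (20.2 to 139.8) and Myod1 (23.8 to 90.1), with Myh3 at 0.5 to 11.7. The summed signal of these 8 was 148.4 to 306.7 in starved and 372.3 to 1173.6 in treated newly transcribed RNA. In total RNA it was 211.6 to 338.3 and 317.7 to 582.9. Of the 8, Acta1 differed most, by 2.10 ± 0.67 in newly transcribed and 0.91 ± 0.59 in total RNA. It was called only with the replicate block, in newly transcribed RNA (limma adjusted p 0.042). There Itga7 differed by 0.83, Myog by 0.32 and Myod1 by 0.23, and Myh3, Des, Tnnt3 and Chrna1 by 0.07, 0.02, -0.04 and -0.06.

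Itga5, the alpha subunit of the fibronectin receptor, was the integrin gene with the largest difference between starved and treated cells in all 3 kinds of RNA. The stretch from 250 bases before to 50 bases after its annotated start is shown with that of Itgb1, its obligate partner, since these genes encode the 2 chains of 1 receptor. Both sequences are from RefSeq on GRCm38.p6 and run 5' to 3' on the gene's own strand. Capitals mark the SP1 GC box GGGCGG on either strand and, in Itgb1, the CRE core TGACG. The Itga5 window lies at chr15:103366742-103367041 on the minus strand and the Itgb1 window at chr8:128685404-128685703 on the plus strand.
Itga5: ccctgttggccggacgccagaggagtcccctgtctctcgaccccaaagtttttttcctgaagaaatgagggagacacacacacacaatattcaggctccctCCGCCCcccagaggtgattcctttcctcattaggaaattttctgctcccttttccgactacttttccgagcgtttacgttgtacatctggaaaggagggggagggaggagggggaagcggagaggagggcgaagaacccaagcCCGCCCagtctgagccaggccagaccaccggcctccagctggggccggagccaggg
Itgb1: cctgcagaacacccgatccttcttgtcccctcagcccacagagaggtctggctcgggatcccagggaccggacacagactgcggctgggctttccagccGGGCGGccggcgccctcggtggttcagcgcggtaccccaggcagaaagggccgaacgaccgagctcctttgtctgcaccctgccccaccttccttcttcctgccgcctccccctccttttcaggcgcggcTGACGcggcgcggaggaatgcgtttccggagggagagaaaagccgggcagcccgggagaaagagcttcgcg
The Itga5 window had a GC content of 58.7% and held the GC box at bases 102 to 107 and 245 to 250. The Itgb1 window had 67.3% GC, with a GC box at bases 100 to 105 and the CRE core at bases 230 to 234. Of 32841 promoter windows of the same length, 35.7% held the GC box and 20.8% the CRE core on either strand, and their median GC content was 52.7%. The letters of 3 other motifs were searched on both strands: AP-1 (TGANTCA, in 7.81% of all windows), the SRF CArG box (1.63%) and the TATA box (TATAAA, 13.6%). None of these letters stood in the Itga5 or Itgb1 window. Entries were at hand for 5 of the 7 genes (6 windows); all 6 held a GC box, and AP-1 letters stood in 1 of them, an inner Itga3 start. Itga6 and Itgb3 were the members with no entry in the table used.

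In total RNA, Itga5 gave normalised signals of 80.2, 61.2, 143.7 and 44.8 in starved replicates 1 to 4 and of 296.4, 365.1, 487.6 and 174.4 in treated replicates 1 to 4. All 4 treated arrays lay above all 4 starved arrays. The difference was 1.83 ± 0.36 on the log2(signal + 16) scale (SE, 95% interval 1.00 to 2.66), or 3.55-fold, with an adjusted p of 0.23 over all probe sets in limma without a block. Replicate numbers were taken to pair the starved and treated arrays of this RNA. With the number as a block the error fell to 0.14 and limma's adjusted p to 0.017, past the threshold of 0.05. Every pair was higher in serum, by 1.65 to 2.3. Itga5 was thus 1 of 12 integrin probe sets called higher with the block, where 0.459% of all probe sets were; without it 0 of 12 were called, against 0.121% of all. It was also the 1 of 12 whose total RNA groups stood apart upwards, which 1.52% of all probe sets did. The blocked call was kept without replicate pair 2 (1.67 ± 0.09, adjusted p 0.039) and lost without pair 1, 3 or 4 (adjusted p 0.068, 0.16 and 0.11). In these bulk samples, more cells of a type and more RNA per cell cannot be told apart.

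**Figure D1:**
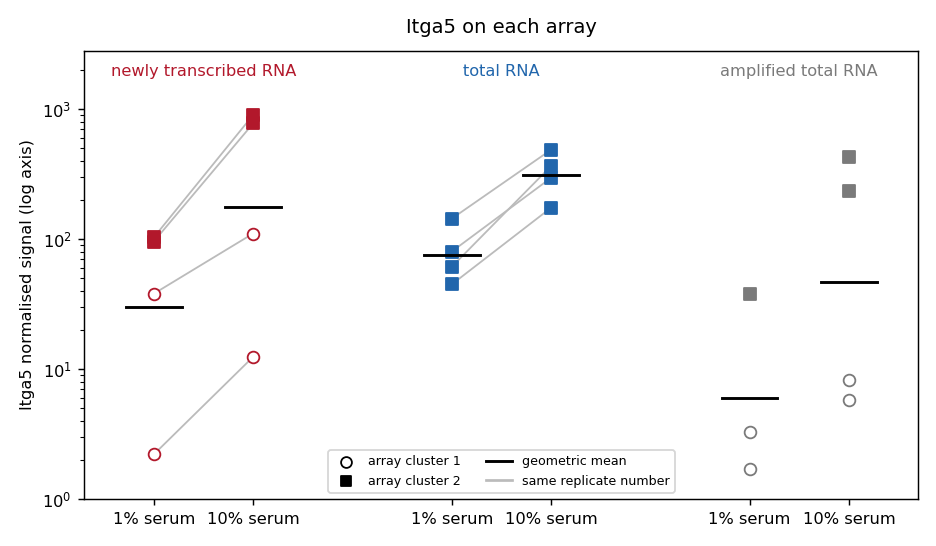
Itga5 signal on each of the 23 arrays (log axis) by kind of RNA and serum; squares are arrays of cluster 2, open circles those of cluster 1, bars geometric means, and grey lines join equal replicate numbers of newly transcribed and total RNA. Total RNA lies at 44.8 to 143.7 in 1% serum and at 174.4 to 487.6 in 10% serum, and the cluster 1 arrays lie low in the other kinds.

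Newly transcribed RNA gave Itga5 signals of 2.2, 95.8, 103.1 and 38.0 in starved and 12.4, 777.3, 903.2 and 110.5 in treated replicates 1 to 4. The treated array of each pair was the higher one, by 0.65 to 2.95, but the groups overlapped because the pairs lay at very different levels. The mean difference was 1.91 ± 1.18 (95% interval -0.82 to 4.65, limma adjusted p 0.93), and with the replicate block 1.91 ± 0.41 (0.93 to 2.89, adjusted p 0.074), short of the threshold in both fits. Amplified total RNA gave 3.3, 38.1 and 1.7 in starved replicates 1 to 3 and 5.8, 427.8, 235.8 and 8.3 in treated replicates 1 to 4. The difference there was 1.73 ± 1.19 (95% interval -1.09 to 4.55, limma adjusted p 1), again with overlapping groups.

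The low Itga5 arrays were those of cluster 1. Newly transcribed RNA gave 2.2 to 110.5 in cluster 1 and 95.8 to 903.2 in cluster 2, a difference of 2.86 in mean log2 signal; amplified RNA gave 1.7 to 8.3 against 38.1 to 427.8, a difference of 3.14. These gaps exceeded the serum differences of the same RNA. Within cluster 1 the serum difference was 0.94 in newly transcribed and 0.32 in amplified RNA. Cluster 1 levels in amplified RNA all lay below the 16 that was added before taking logs, as did both arrays of newly transcribed replicate 1 but not those of replicate 4 (38.0 and 110.5). Within cluster 2 it was 2.89 and 2.63. On the 4 newly transcribed arrays of cluster 2 alone the limma fit gave 2.89 ± 0.14 with an adjusted p of 0.047. That subset, with 2 arrays in each group, was chosen after seeing the data. The part of the GAPDH end difference in these levels was not tested.

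Over the 6 groups, mean Itga5 log2 levels were lowest in amplified starved RNA (4.73 ± 0.90 SD, n = 3), followed by newly transcribed starved (5.91 ± 1.26, n = 4), amplified treated (6.45 ± 2.25, n = 4), total starved (6.53 ± 0.59, n = 4), newly transcribed treated (7.82 ± 2.38, n = 4) and total treated RNA (8.35 ± 0.59, n = 4). No neighbours in that order differed by more than the larger of their SDs. The serum difference of newly transcribed RNA exceeded that of total RNA by 0.09 ± 1.30, with a 95% interval of -2.69 to 2.86 (limma adjusted p 1), so that neither a stronger nor a weaker response at the level of new transcripts was detectable.

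The beta 1 subunit, which pairs with alpha 3, alpha 5 and alpha 6, had bright probe sets, and neither was called in any serum comparison. Its probe set 100123_f_at gave 2807.5, 2902.3, 2902.3 and 3017.2 in starved and 2950.6, 2601.6, 3792.5 and 3473.2 in treated total RNA. The groups overlapped, and the difference of 0.13 ± 0.13 had a 95% interval of -0.18 to 0.43. In newly transcribed RNA the same probe set gave 4628.6, 3868.2, 3707.8 and 3956.1 against 5342.0, 3489.2, 3792.5 and 4390.3, a difference of 0.06 ± 0.16 with an interval of -0.32 to 0.44. The ending _f of its name is Affymetrix's mark for probes that may match a family of similar sequences, which also holds for 1 probe set each of Itgav and Itgb5. A second probe set, 100124_r_at, gave 935.3, 558.6, 626.0 and 1010.5 in starved and 1456.4, 732.7, 883.9 and 1439.8 in treated newly transcribed RNA. All 4 pairs were higher in serum, by 0.38 to 0.63, although the groups overlapped. Its difference was 0.50 ± 0.30 without and ± 0.11 with the replicate block (95% interval 0.24 to 0.76), where the limma adjusted p was 0.074. The pair of Itgb1 probe sets thus gave 0.06 and 0.50 for newly transcribed RNA, and that gap was not tested. In total RNA 100124_r_at differed by 0.19 ± 0.24 and was higher in 4 of 4 pairs. In amplified RNA both probe sets had the opposite sign, with -0.25 ± 0.30 for 100123_f_at and -0.20 ± 0.40 for 100124_r_at. The former was lower in 3 of 3 equal-numbered pairs, but numbers were not taken to pair these arrays. Its serum difference was -0.29 within array cluster 1 and 0.04 within cluster 2, which held 1 starved array.

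The beta 5 subunit, an alpha v partner in the vitronectin receptor, had a probe set, 100601_at, that was lower in serum in every pair of total and newly transcribed RNA, without passing the test. It gave 1357.4, 1290.6, 1259.1 and 1446.9 in starved and 1173.7, 1194.9, 1246.0 and 1263.0 in treated total RNA. Every pair was lower in serum, by -0.21 to -0.01, and the groups met only at their edges. The difference was -0.13 ± 0.09 in limma without a block and did not pass. In newly transcribed RNA it gave 430.4, 878.5, 989.7 and 419.7 in starved and 355.3, 732.2, 815.3 and 335.5 in treated cells. All 4 pairs were lower by between -0.31 and -0.26; with the block the difference was -0.28 ± 0.10 (95% interval -0.52 to -0.03, limma adjusted p 0.19). Amplified RNA leaned to the opposite sign, 0.30 ± 0.48. The second Itgb5 probe set, 162218_f_at, was far dimmer (50.4 to 185.5) and differed by -0.31 ± 0.16 in total RNA and by 0.09 ± 0.19 in newly transcribed RNA. It too was lower in all 4 total RNA pairs, while Itga5, Itga6 and Itgb1 100124_r_at were higher in all 4. How many of all probe sets kept the same sign in every pair was not counted.

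The alpha v subunit had 3 probe sets of very unlike brightness. The bright one, 104386_f_at, gave 4292.9, 2127.6, 1658.6 and 4581.2 in starved and 5102.0, 3030.2, 2887.1 and 4292.9 in treated newly transcribed RNA. The high values of both groups were those of replicates 1 and 4, the arrays of cluster 1. The serum difference was 0.36 ± 0.37 in newly transcribed RNA, 0.10 ± 0.13 in total RNA (95% interval -0.20 to 0.40) and -0.19 ± 0.42 in amplified RNA. The dim probe sets 98366_at (10.2 to 70.5 over the 23 arrays) and 104385_i_at (2.2 to 154.4) gave total RNA differences of 0.06 ± 0.24 and -0.39 ± 0.43. Itgb3, the beta chain that joins alpha v in the receptor also found on platelets, ranged from 1.1 to 15.8 and lay below the added 16 on all 23 arrays. At that signal a serum difference was not detectable; of the 4 platelet markers measured, Pf4 lay at 1.3 to 15.9, Gp5 at 2.9 to 39.6, Gp9 at 5.5 to 103.2 and Gp1bb at 8.1 to 140.

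The laminin-binding alpha subunits were dim. Itga6 gave 14.8, 29.6, 23.1 and 35.7 in starved and 27.4, 33.8, 26.1 and 44.2 in treated total RNA, a difference of 0.24 ± 0.19. In newly transcribed RNA it gave 100.8, 36.0, 39.8 and 47.4 against 179.1, 37.7, 35.7 and 132.9, where the higher arrays again were replicates 1 and 4 and the difference was 0.48 ± 0.50. The Itga3 probe set 104211_at gave 31.1, 30.7, 31.1 and 29.1 in starved and 31.6, 50, 39.1 and 23.8 in treated newly transcribed RNA (0.14 ± 0.17). In amplified RNA it gave 29.6, 40.4 and 30.4 in starved and 21.6, 25.0, 21.6 and 19.5 in treated cells, so that all treated arrays lay below all starved ones. It was the 1 of 12 members whose amplified groups stood apart downwards, which 1.15% of all probe sets did, and the difference of -0.38 ± 0.17 was not called. Total RNA did not share that sign (0.06 ± 0.17). The second Itga3 probe set, 104210_at, ranged from 7.1 to 67.1 and differed by between -0.36 and 0.17.

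**Figure D2:**
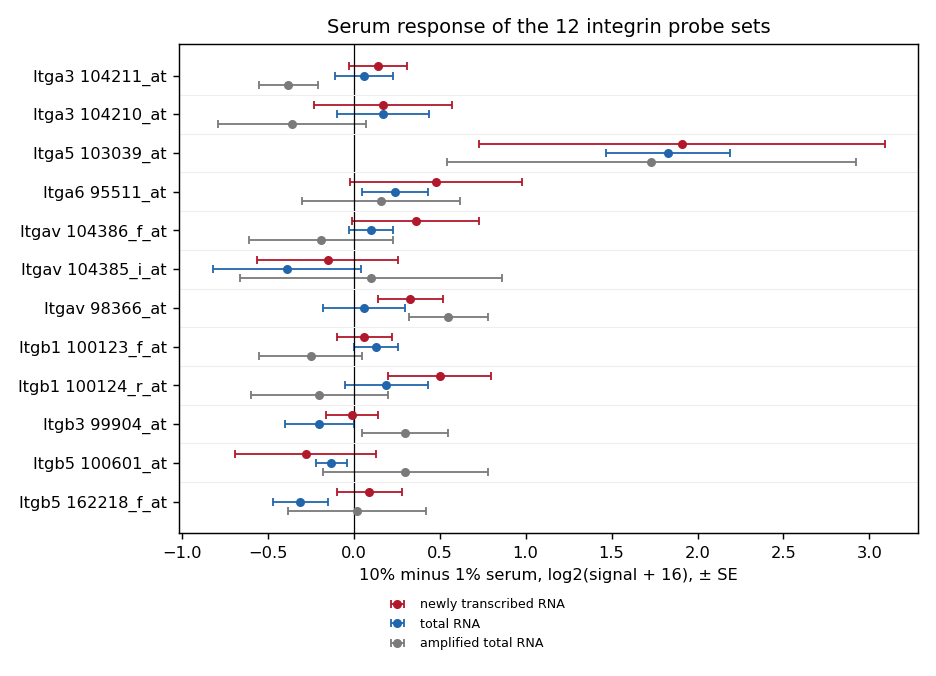
Serum difference (10% minus 1%, log2(signal + 16), ± SE of the limma fit without a block) of the 12 integrin probe sets in the 3 kinds of RNA. Itga5 lies at 1.73 to 1.91 in every kind, and the other members lie between -0.39 and 0.55.

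Counted over the 12 probe sets, the median serum difference was 0.15 in newly transcribed RNA (9 above 0), 0.08 in total RNA (8 above 0) and 0.06 in amplified RNA (7 above 0); the medians of all probe sets were 0.01, -0.01 and -0.01. Limma without a block called 0 of 12 in each kind. In newly transcribed and amplified RNA it also called 0% of all 12422 probe sets, with 800 and 175 of them at an unadjusted p under 0.05. With the replicate block 1.74% of all probe sets were called in newly transcribed RNA, and 0 of the 12 members. The serum differences of newly transcribed and total RNA, compared member by member, differed by between -0.15 and 0.40, all at an adjusted p of 1. Those of newly transcribed and amplified RNA likewise gave no call, and each interaction called 0% of all probe sets (299 and 201 at an unadjusted p under 0.05); the Itga3 probe set 104211_at stood at 0.52 ± 0.22 (95% interval 0.04 to 1.00, limma adjusted p 1). Both sets of comparisons share the newly transcribed arrays.

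**Figure D3:**
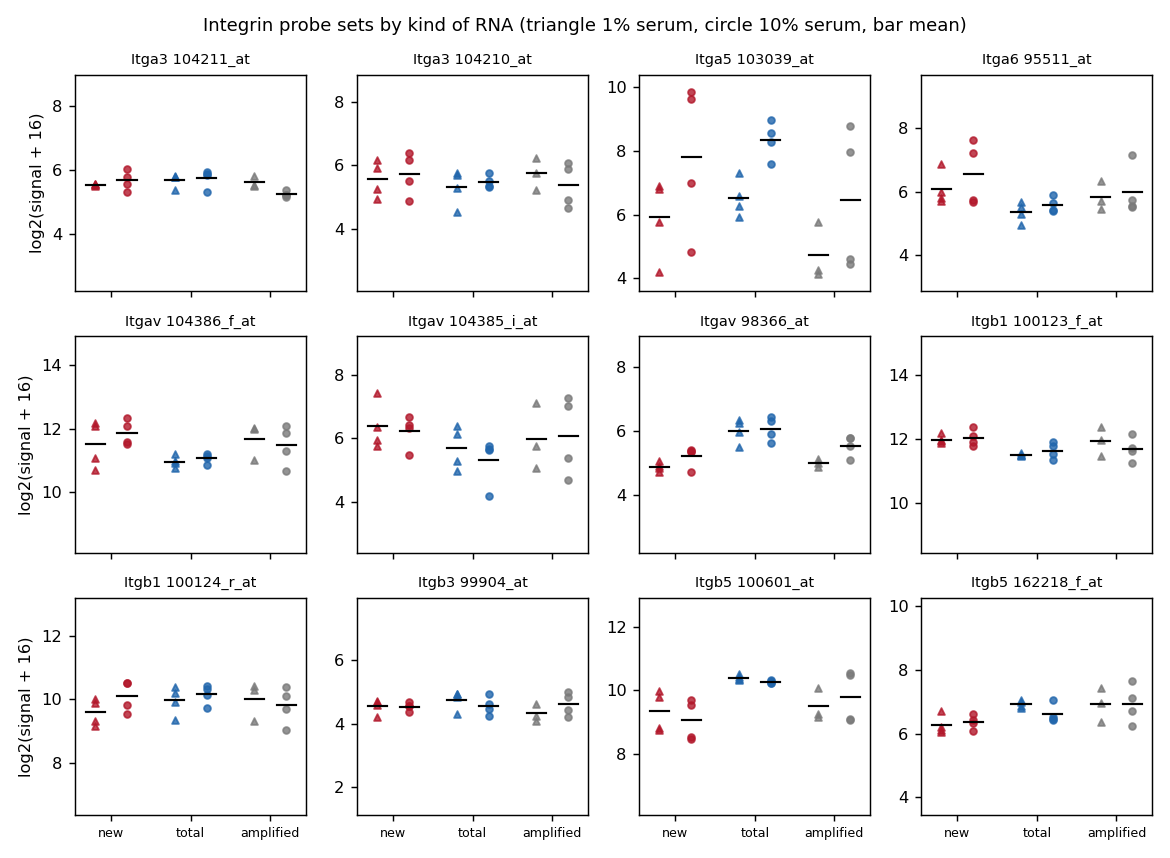
Log2(signal + 16) of each integrin probe set on every array, by kind of RNA (new is newly transcribed RNA), with triangles for 1% and circles for 10% serum and bars for group means; every panel spans the same number of log2 units but starts at its own level. Itga5 shows the widest spread, while Itgb3 stays at 1.1 to 15.8 in signal.

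The kinds of RNA were compared next, to see whether a member was more or less represented among new transcripts or was altered by amplification. The Itgav probe set 98366_at is given first. It was dim, below the array median on 17 of 23 arrays and below the added 16 on 6. It gave 29.3, 64.5, 46.0 and 60.6 in starved and 33.1, 64.2, 43.8 and 70.5 in treated total RNA, against 15.6, 18.8 and 13.5 in starved and 30.3, 39.5, 17.8 and 38.7 in treated amplified RNA. Starved groups did not overlap, and the treated groups overlapped in part. That gap between starved groups was not particular to this probe set. Itga5 lay at 1.7 to 38.1 in amplified and 44.8 to 143.7 in total starved RNA. The brighter Itgb5 probe set lay at 551.1 to 1070.8 and 1259.1 to 1446.9. How many of all probe sets had such a gap was not counted. For 98366_at, amplified RNA was lower by -0.77 ± 0.17 (95% interval -1.14 to -0.40, limma adjusted p 0.0070). It was the 1 of 12 members called in this comparison, a lower share than the 18.8% of all probe sets that were called. The call was lost on the values as deposited (-0.91 ± 0.27, limma adjusted p 0.12). In order of their mean log2 level, its groups were newly transcribed starved (4.88 ± 0.14 SD, n = 4), amplified starved (5.0 ± 0.12, n = 3), newly transcribed treated (5.21 ± 0.34, n = 4), amplified treated (5.54 ± 0.33, n = 4), total starved (6.01 ± 0.38, n = 4) and total treated (6.07 ± 0.38, n = 4). Of these neighbours, amplified treated and total starved RNA differed by more than the larger of their SDs. The bright alpha v probe set 104386_f_at leaned the other way between the same kinds of RNA, 0.56 ± 0.21 (adjusted p 0.086), but was at -0.01 ± 0.15 (adjusted p 0.98) with the array cluster as a block. All 8 total RNA arrays lay in cluster 2, so that this blocked difference rests mainly on the 3 amplified arrays of cluster 2.

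Itga5 was lower in amplified than in unamplified total RNA by -1.85 ± 0.62, just short of the threshold (limma adjusted p 0.054). With the array cluster as a block it was -0.14 ± 0.42 (adjusted p 0.90), again resting mainly on the 3 amplified arrays of cluster 2. The parts of cluster and amplification in the unblocked difference were not tested. Without a block Itga5 was called without amplified starved replicate 2 (-2.11, adjusted p 0.037), amplified treated replicate 2 (-2.24, 0.011) or amplified treated replicate 3 (-2.10, 0.029), the amplified arrays of cluster 2. The Itgb5 probe set 100601_at stood at -0.69 ± 0.24 (limma adjusted p 0.058) and was called without the same arrays (-0.84, -0.81 and -0.80). With the array cluster as a block it was 0.01 ± 0.11 (adjusted p 0.98), with the same limit. Its group order ran from newly transcribed treated (9.06 ± 0.65 SD, n = 4) over newly transcribed starved (9.34 ± 0.64, n = 4), amplified starved (9.49 ± 0.52, n = 3) and amplified treated (9.80 ± 0.82, n = 4) to total treated (10.27 ± 0.05, n = 4) and total starved RNA (10.40 ± 0.09, n = 4). Of these neighbours, total treated and total starved RNA differed by more than the larger of their SDs.

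Between newly transcribed and amplified total RNA, limma without a block called 0 of 12 members in starved and 0 of 12 in treated cells, where 5.76% and 7.26% of all probe sets were called. Replicate numbers were taken to pair the treated arrays of these kinds, where pairing and array cluster cannot be told apart. They were not taken to pair the starved ones (correlations of -0.39 to 0.68), which the same fit held too. With the number as a block 2 of 12 members were called in treated cells, against 18.7% of all probe sets. The blocked errors thus rest in part on arrays that the numbers were not taken to pair. Itgb5 100601_at gave 355.3, 732.2, 815.3 and 335.5 in newly transcribed and 519.8, 1460.8, 1408.8 and 537.9 in amplified treated RNA, lower in each of the 4 pairs. That difference was -0.74 ± 0.45 without the block (adjusted p 0.42), ± 0.20 with it (limma adjusted p 0.025), and ± 0.12 with the array cluster as a block (adjusted p 0.0011), a fit that called 20.6% of all probe sets. Itga3 104211_at gave 31.6, 50, 39.1 and 23.8 against 21.6, 25.0, 21.6 and 19.5, higher in each pair, with 0.44 ± 0.15 (adjusted p 0.11) and, blocked, ± 0.13 (limma adjusted p 0.042). Without newly transcribed treated replicate 4 it was called with no block too (0.56 ± 0.14, adjusted p 0.042). This probe set lay below the array median on 19 of 23 arrays. The second probe sets of both genes were not called under any alternative. Their limma adjusted p ran from 0.5 to 0.98 (Itga3 104210_at) and from 0.12 to 0.89 (Itgb5 162218_f_at). In starved cells the value of Itga3 104211_at was -0.08 ± 0.16 and that of Itgb5 100601_at -0.16 ± 0.48. With the array cluster as a block the latter was -0.35 ± 0.13 (limma adjusted p 0.094).

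**Figure D4:**
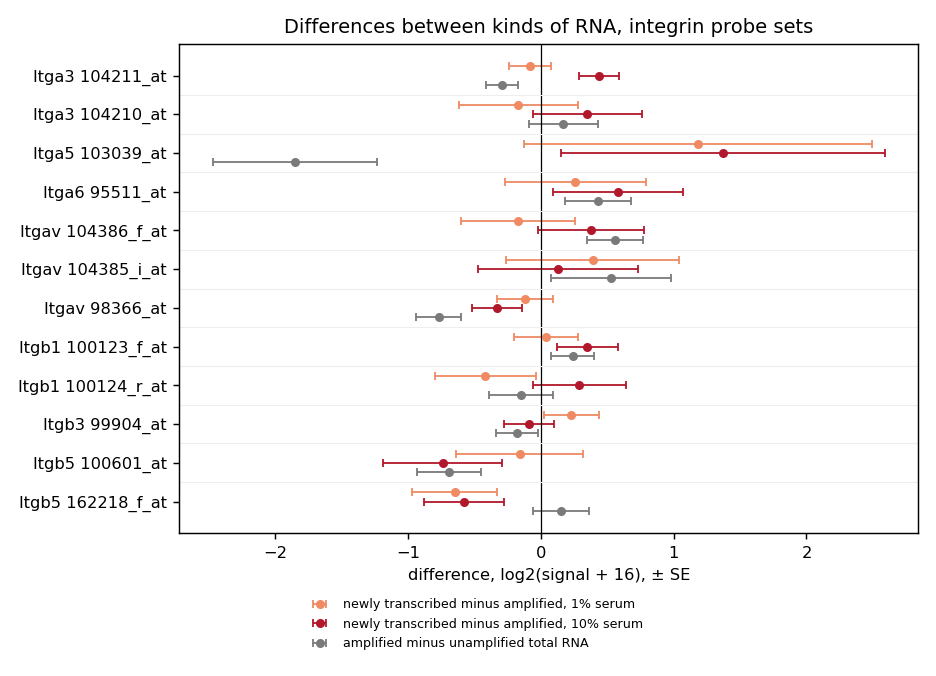
Differences of the 12 integrin probe sets between kinds of RNA (log2(signal + 16), ± SE of the limma fit without a block). Itga5 shows the widest errors, and the grey points of Itgav 98366_at (-0.77), Itgb5 100601_at (-0.69) and Itga5 (-1.85) lie left of 0.

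The members also varied together and against each other over the 23 arrays, after the mean of each kind of RNA was subtracted. The bright Itgav probe set and Itgb5 100601_at, which encode the chains of the alpha v beta 5 receptor, ran opposite (Pearson r = -0.9), and Itgb1 100124_r_at and Itga6 ran opposite to Itgb5 as well (-0.79 and -0.7). Itga5 ran with Itgb5 (0.66), and the bright Itgav with Itgb1 100124_r_at (0.78). These points share arrays, and the array clusters move the same way. From cluster 1 to cluster 2 of newly transcribed RNA the mean log2 level of Itgb5 100601_at differed by 1.12, of Itgav 104386_f_at by -0.95, of Itgb1 100124_r_at by -0.77 and of Itga6 by -1.19, and amplified RNA gave 1.22, -0.99, -0.94 and -0.73. Between probe sets of the same gene the correlation was 0.71 for Itgb1, 0.31 for Itga3, 0.08 to 0.32 for Itgav and -0.12 for Itgb5.

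Over the same centred arrays, the genes most like Itga5 among all others were Junb, a serum-inducible AP-1 transcription factor, and Zfpm1, a cofactor of GATA factors (both r = 0.95). The closest to Itgb5 were Abhd8 (0.97) and Aamp (0.96), and those to the bright Itgav probe set were Ddx17, an RNA helicase (0.92), and Akirin1 (0.90). Itga6 was followed by Aebp2 and Azin1 (both 0.89), and Itgb1 100123_f_at by Mylk, the myosin light chain kinase (0.88), and Casp2 (0.84). The dim members had looser likeness, Itgb3 to Sst at 0.76 and Itga3 to Tyr at 0.74. All of these rest on 23 arrays that share the cluster split.

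Around the receptors, the other integrin subunits, the matrix ligands, the adhesion complex and the membrane partners were counted as gene lists, each gene by its brightest probe set. Limma without a block called no gene of the 4 lists in any serum comparison. With the replicate block, 0 of 11 measured other integrin subunits and 0 of 31 genes of the adhesion complex (talin, paxillin, kinases and adaptors) were called in newly transcribed or total RNA, among 8251 genes of which 89 were called higher and 85 lower in newly transcribed and 48 higher and 3 lower in total RNA. Of 25 ligand genes 2 were called higher in newly transcribed RNA and 0 in total RNA. They were Tgfbi, a secreted protein that binds integrins (2.12 ± 0.21, limma adjusted p 0.026), and Tnc, tenascin C (0.76 ± 0.13, adjusted p 0.046). Another Tgfbi probe set gave 0.00, and another of Tnc 2.13.

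Among the 12 membrane partners, Plaur, the urokinase receptor that sits beside integrins at the cell surface, was called higher in newly transcribed (1.66 ± 0.12, limma adjusted p 0.016) and in total RNA (2.03 ± 0.16, adjusted p 0.017). Cd44, the hyaluronan receptor, was called in newly transcribed RNA (1.40 ± 0.11, adjusted p 0.016), while its other probe sets gave -0.01 and -0.03. The list medians in newly transcribed RNA were 0.09 for the other subunits, 0.17 for the ligands, 0.16 for the adhesion complex and 0.00 for the partners, against -0.01 over all genes. In total RNA they were 0.03, 0.05, 0.09 and 0.08 against -0.02, and in amplified RNA 0.16, 0.07, 0.07 and 0.06 against -0.01. The 10 macrophage markers all differed upwards in total RNA, with a median of 0.19 and 0 called, and their part in the integrin differences was not tested.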

How the data were processed

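The deposited table holds linear intensities of 12488 Affymetrix probe sets for each of the 23 arrays. Per the labels' protocols the RNA was reverse transcribed, linearly amplified and labelled with biotin by a T7 strategy; that text is the same for all samples, so only titles separate total from amplified total RNA. How probes were summarised or scaled is not given in the sources used here. Identical arrays were not found. Array medians spanned 1.97 on the log2(value + 16) scale, so the arrays were quantile normalized in limma 3.58.1 (R 4.3.3) before log2(value + 16) was taken, a scale that understates changes at low signal. Controls (66) were removed.

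Groups came from the titles, which number biological replicates; whether these were separate cultures or animals is not stated, so p-values measure the spread between arrays, whose number limits precision. The 8 comparisons used limma (lmFit and eBayes, two-sided) on the arrays of the kinds compared, adjusted by Benjamini-Hochberg across all 12422 tested, with calls at an adjusted p below 0.05. The serum fits without a block were tested on simulated data with independent noise on each array. Fits with a block and the array clusters were not simulated. Of the tested probe sets, 10833 had 1 symbol (8251 genes), 396 several and 1193 were not listed; all single-symbol probe sets of the members were named, and from the lists the called genes. Likeness took the highest Pearson r with the brightest probe set of each member. Arrays were clustered by average linkage on 1 minus their correlation.

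Replicate numbers were taken to pair groups where every same-numbered correlation of deviations from the group means was over 0.1. This held for starved with treated arrays in newly transcribed (0.7 to 0.8) and total RNA (0.23 to 0.7) and for newly transcribed with amplified (0.56 to 0.73) and total with amplified treated arrays (0.14 to 0.3). It failed for the amplified serum groups (-0.47 to 0.76), newly transcribed with amplified starved arrays (-0.39 to 0.68) and total with amplified starved arrays (0.07 to 0.31). Alternatives were the values as deposited, median scaling, pseudocounts of 1 and 64, a filter on dim probe sets, leaving out each array, the replicate block and the array cluster as a block. The members and lists were chosen with earlier results of these data known.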

Additional observations from a re-analysis of the deposited data

Results flagged for a closer look

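Within groups of 4 arrays, 6 of 60 member groups held 1 array far from the others (gap over range above Dixon's 95% value); chance gives about 1 in 20. For Itga3 104211_at, total starved replicate 2 lay at a log2 level of 5.38 against 5.77 to 5.82 on the other arrays (gap ratio 0.90), and total treated replicate 3 at 5.32 against 5.86 to 5.94 (0.86). For Itgav 104385_i_at, total treated replicate 3 lay at 4.18 against 5.64 to 5.74 (0.93). The Itgav probe set 98366_at had newly transcribed treated replicate 3 at 4.71 against 5.33 to 5.41 (0.89). Itga6 had amplified treated replicate 4 at 7.16 against 5.51 to 5.73 (0.86), and Itgb3 had total starved replicate 3 at 4.31 against 4.84 to 4.95 (0.84). Of the total RNA cases, Itga3 and Itgav share treated replicate 3.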

How the results depend on the processing

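Over 1957 single values under alternatives, 1779 kept their sign and their side of the threshold, 154 changed sign with neither value past it, 23 passed it anew, 1 no longer passed and 0 reversed while called. The serum difference of Itga5 stayed above 0 under all alternatives run: 0.94 to 2.91 in newly transcribed RNA (21 of 21), 1.41 to 2.09 in total RNA (18 of 18) and 0.32 to 2.71 in amplified RNA (16 of 16). It passed the threshold with the replicate block in total RNA (1.83, 1 member called) and there without replicate 2 (1.67, 1 member called). Newly transcribed RNA passed only on the arrays of cluster 2 (2.89, 1 member among 2 probe sets called). That subset, with 2 arrays in each group, was not planned and was chosen after seeing the data. Leaving out single replicates moved Itga5 without a block from 1.24 to 2.91 (newly transcribed), from 1.62 to 2.09 (total RNA) and from 0.95 to 2.40 (amplified RNA), and from 1.57 to 2.33 and from 1.67 to 1.89 with it. Over all probe sets the replicate block moved the calls from 0 to 216 in newly transcribed and from 15 to 60 in total RNA. In the amplified serum comparison, where numbers were not taken to pair arrays, it called 0.

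For newly transcribed against amplified RNA in treated cells, the replicate block and the array cluster block each called 2 members against 0, and leaving out single arrays 0 to 1. The replicate block there also spanned starved arrays, which the numbers were not taken to pair. For amplified against total RNA, where numbers were taken to pair only the treated arrays, 1 member was called. With the replicate block 3 were (24.8% of all probe sets), adding Itga5 (-2.03, limma adjusted p 0.014) and Itgb5 100601_at (-0.72, adjusted p 0.039). It was 0 on the values as deposited, 2 with arrays scaled to 1 median, 2 with a pseudocount of 1, 2 without dim probe sets, and 1 to 4 when single arrays were left out. The largest of these, 4, came without amplified starved or amplified treated replicate 2; without amplified treated replicate 3 it was 3 and without total treated replicate 3 it was 2. The block changed no other member's call. The values as deposited moved the median of all probe sets between serum conditions to -0.18 (newly transcribed RNA), 0.21 (total) and 0.25 (amplified), where Itga5 gave 1.54, 1.97 and 1.73. The causes of these shifts were not tested, and signals below the added 16, as for Itgb3, carry little information on change.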
